A study of Mus musculus with 2 samples.

Results

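The genes of the T helper 1 (Th1) programme were followed in mouse CD4+ T cells that had been cultured for 48 h under conditions for T helper 17 (Th17) differentiation. The members are the signature cytokine gene, transcription factor genes and cytokine receptor genes of Th1 cells, 10 genes in all, taken by symbol from the 13056 annotated genes of the deposited expression table. All 10 were found. They are the cytokine gene Ifng, the factor genes Tbx21, Eomes, Runx3, Hlx and Stat4, and the receptor genes Il12rb1, Il12rb2, Il18r1 and Il18rap.

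The cells had been grown either with antigen presenting cells (APCs) transgenic for OX40L (OX40L-TG APCs) or with wild type APCs (WT APCs). OX40L is the ligand of OX40, a costimulatory receptor of T cells. In both conditions the T cells came from C57BL/6 mice aged 6 to 8 weeks, and their genotype was labelled wild type. The labels name neither the kind of APC, nor their share among the harvested cells, nor the promoter of the OX40L transgene. Each condition had 1 library. Differences below are therefore between 2 single libraries and could not be checked against any replicate.

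Th1 cells make interferon gamma, the product of Ifng. Their programme is set by T-bet (Tbx21), a T-box transcription factor that activates Ifng together with RUNX3 and holds back the Th17 programme. Interleukin 12 (IL-12) binds a receptor of the chains IL-12Rβ1 and IL-12Rβ2 and acts through the kinases JAK2 and TYK2 on STAT4. Interleukin 18 (IL-18) binds a receptor of the chains encoded by Il18r1 and Il18rap, signals through MyD88, and acts with IL-12 in raising interferon gamma.

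The deposited values are FPKM, fragments per kilobase of transcript scaled to library size, so levels of different genes can be set side by side. From the steps between low FPKM values, the library sizes behind the FPKM were estimated at 30200000 (OX40L-TG APCs) and 26400000 (WT APCs) fragments. These sizes include any scaling applied by the authors and may differ from the number of fragments sequenced. Each FPKM ratio below, OX40L-TG APCs over WT APCs, has a 95% exact Clopper-Pearson interval from the estimated fragments, which covers counting error only. Changes are log2((FPKM + 1)/(FPKM + 1)) in the same direction, and genes under 1 FPKM in both libraries were set aside, which left 10645 genes and 8 of the 10 members. Over these 10645 genes the median change was 0.11, and the median plain ratio of the 6038 genes at 10 FPKM or more in both libraries was 1.09. Changes are therefore also given relative to the median of all genes.

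The IL-12 receptor genes were higher with OX40L-TG APCs and the IL-18 receptor genes were lower. Il12rb2, which encodes the chain that limits IL-12 responsiveness, stood at 27.2 against 12.7 FPKM and had the highest change among the members. The factor genes Tbx21 and Runx3 were about 1.5 times as high, Stat4 was at 0.916 times its level with WT APCs, and Ifng was low in both libraries. At 2-fold on the log2(FPKM + 1) scale, 1 of the 8 kept members was higher, beside 2.26% of all kept genes, and none was lower, beside 1.32% of all kept genes. With the median ratio of well-expressed genes set to 0 on the log2 scale, all genes gave 188 higher and 175 lower instead of 241 and 141. The member count is then 0, as given below for Il12rb2.

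**Figure D1:**
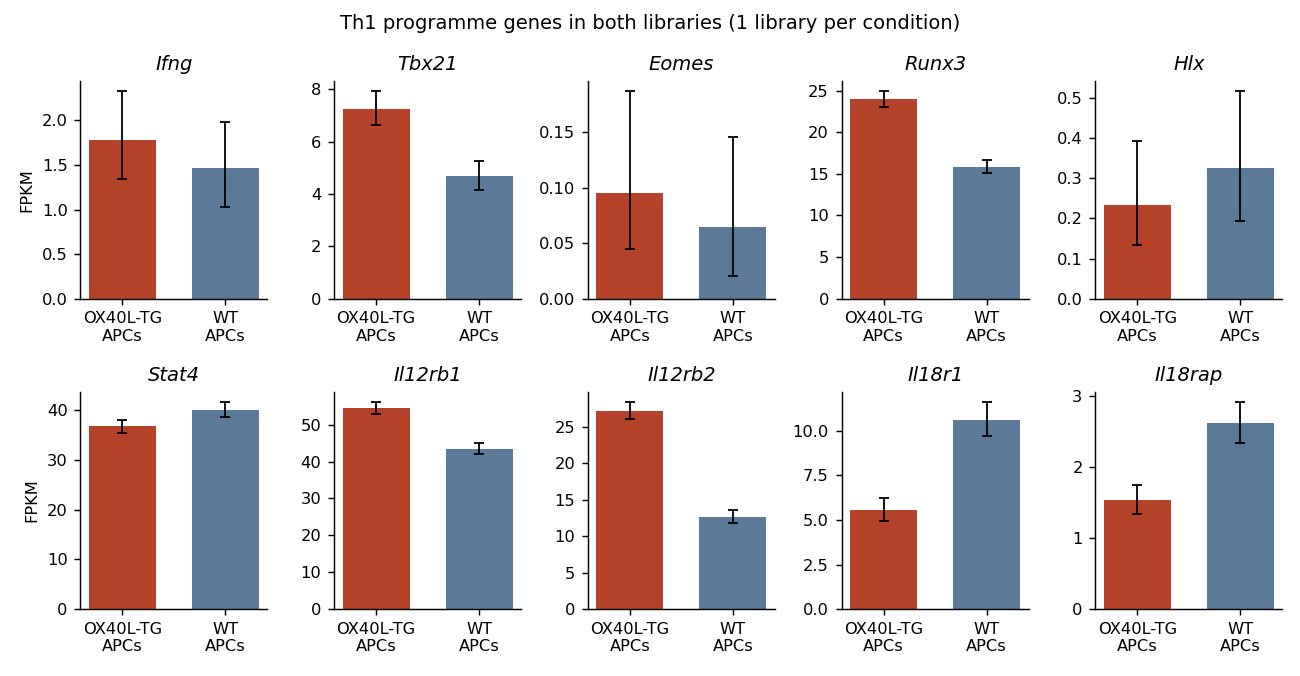
FPKM of the 10 Th1 programme genes in the OX40L-TG-APC library (red, left) and the WT-APC library (blue, right), each on its own axis from 0. Error bars are 95% exact Poisson intervals of the estimated fragments and cover counting error only. Il12rb2 (27.2 against 12.7 FPKM) and Il18r1 (5.57 against 10.6 FPKM) differ in opposite directions.

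Ifng (Entrez 15978, chromosome 10, 118441046 to 118445892) was at 1.78 FPKM in the OX40L-TG-APC library, against 1.46 FPKM in the WT-APC library. About 55 and 39 fragments were behind these values. The ratio was 1.22 (0.802 to 1.91), so no difference was detectable at this depth. Its change of 0.18 lay 0.06 above the median of all genes, and 40.3% of the kept genes had a change at least as high. In both libraries Ifng ranked low, at percentile 24.8 (OX40L-TG APCs) and 23.9 (WT APCs) of the levels of all 13056 annotated genes.

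Tbx21 (Entrez 57765, chromosome 11, 97098006 to 97115331), the gene of T-bet, was at 7.26 FPKM in the OX40L-TG-APC library, against 4.70 FPKM in the WT-APC library. The ratio was 1.55 (1.33 to 1.79) over about 504 and 285 fragments. Its change of 0.54 lay 0.42 above the median of all genes and short of 2-fold, and 8.81% of the kept genes had a change at least as high. The level of Tbx21 thus lay in the middle of the table, at percentile 44.0 with OX40L-TG APCs and 37.5 with WT APCs.

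Runx3 (Entrez 12399, chromosome 4, 135120644 to 135177990), which encodes the RUNX factor that binds Ifng with T-bet, differed by a similar factor from a higher level. Its level was 24.0 FPKM in the OX40L-TG-APC library, against 15.9 FPKM in the WT-APC library, a ratio of 1.51 (1.42 to 1.61). Its change of 0.57 lay 0.45 above the median of all genes. A further feature of the table without gene annotation lies at the printed locus and stood at 0.366 and 0.410 FPKM in the same order.

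Stat4 (Entrez 20849, chromosome 1, 52008243 to 52107184), the gene of the factor that IL-12 activates, was among the highest members in both libraries. Its level was 36.6 FPKM in the OX40L-TG-APC library, against 40.0 FPKM in the WT-APC library, a ratio of 0.916 (0.870 to 0.966). The change of -0.12 lay -0.24 from the median of all genes, and 17.6% of the kept genes had a change at least as low. The printed locus also overlaps a pseudogene and a long noncoding RNA gene, and those of Eomes and Il12rb2 overlap a noncoding RNA gene each. Strand handling was not given, so fragments of these genes cannot be told apart from those of the members.

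Eomes and Hlx were near the floor of the table and were set aside from all counts. Eomes (Entrez 13813, chromosome 9, 118478188 to 118486132), a T-box factor gene related to Tbx21 and used by CD8 T cells and natural killer (NK) cells, was at 0.0950 FPKM in the OX40L-TG-APC library, against 0.0643 FPKM in the WT-APC library. Only about 9 and 5 fragments were behind these values, with a ratio of 1.48 (0.473 to 5.97). Hlx (Entrez 15284, chromosome 1, 184727142 to 184732493), a homeobox factor gene that acts with T-bet on Ifng, stood at 0.234 and 0.326 FPKM in the same order. Its ratio was 0.719 (0.341 to 1.53) over about 15 and 18 fragments. No difference in either gene was detectable at this depth. T-bet was thus the T-box gene of this pair that the cells carried at an appreciable level, with Tbx21 at 76.5 times Eomes with OX40L-TG APCs and at 73.1 times with WT APCs.

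Il12rb2 (Entrez 16162, chromosome 6, 67292017 to 67376137) was at 27.2 FPKM in the OX40L-TG-APC library, against 12.7 FPKM in the WT-APC library. The ratio was 2.14 (1.98 to 2.32) over about 2147 and 876 fragments. Its change of 1.04 lay 0.93 above the median of all genes, and 2.05% of the kept genes had a change at least as high. The change lies close to the 2-fold threshold. It was 0.86 with a pseudocount of 5, 0.92 with the median ratio of well-expressed genes set to 0, and 0.87 with equal totals, each short of 2-fold and each in the same direction. Il12rb2 was the only member in the authors' deposited table of 398 selected genes, which gave a plain log2 ratio of 1.13 with a p-value of 0.0074. That p-value compares the libraries, not the conditions. The plain log2 ratio has no 1 added to the FPKM, and with 1 added the authors' FPKM gave a change of 1.07.

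Il12rb1 (Entrez 16161, chromosome 8, 70808448 to 70821424), the gene of the chain that the IL-12 receptor shares with the IL-23 receptor, was the member with the highest level in both libraries. Its level was 54.4 FPKM in the OX40L-TG-APC library, against 43.5 FPKM in the WT-APC library, a ratio of 1.25 (1.19 to 1.31). Its change of 0.32 lay 0.20 above the median of all genes, and 22.0% of the kept genes had a change at least as high. The level of Il12rb1 was thus 2.0 times that of Il12rb2 with OX40L-TG APCs and 3.42 times with WT APCs.

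Both chains of the IL-18 receptor were lower with OX40L-TG APCs. Il18r1 (Entrez 16182, chromosome 1, 40465551 to 40500854), which encodes the chain that binds IL-18, was at 5.57 FPKM in the OX40L-TG-APC library, against 10.6 FPKM in the WT-APC library. The ratio was 0.526 (0.452 to 0.608), a level 1.90-fold lower (1.64 to 2.21). Its change of -0.82 lay -0.93 from the median of all genes, and 1.95% of the kept genes had a change at least as low. Il18r1 was short of 2-fold, and its change ran from -0.97 with equal totals to -0.56 with a pseudocount of 5.

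Il18rap (Entrez 16174, chromosome 1, 40515361 to 40549297), which encodes the accessory chain needed for signalling, was at 1.53 FPKM in the OX40L-TG-APC library, against 2.61 FPKM in the WT-APC library. The ratio was 0.586 (0.493 to 0.700), a level 1.71-fold lower (1.43 to 2.03). Its change was -0.51, and 4.09% of the kept genes had a change at least as low. The ratio of Il18r1 to Il18rap was similar in both libraries, at 3.64 with OX40L-TG APCs and 4.06 with WT APCs. Set against each other, the level of Il12rb2 was 4.88 times that of Il18r1 with OX40L-TG APCs and 1.20 times with WT APCs. That comparison was chosen after the values were seen, and it does not depend on the scaling between libraries.

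**Figure D2:**
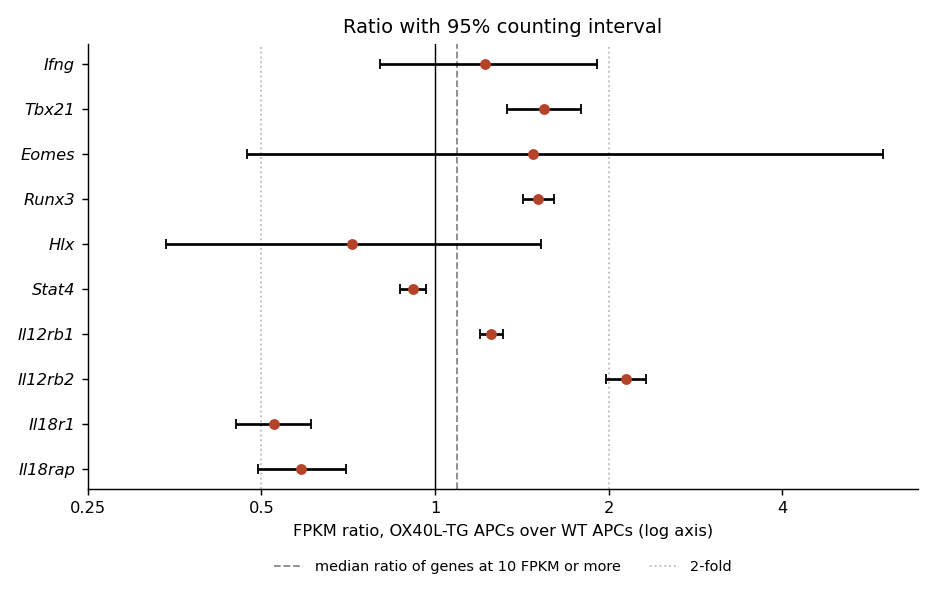
FPKM ratio of each Th1 programme gene, OX40L-TG APCs over WT APCs, on a log axis, with its 95% counting interval. The dashed line marks 1.09, the median ratio of genes at 10 FPKM or more, and the dotted lines mark 2-fold. Il12rb2 lies at 2.14, Il18r1 at 0.526 and Il18rap at 0.586, while the intervals of Ifng, Eomes and Hlx include 1.

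The counting intervals of 7 of the 8 kept members left out 1, beside 66.6% of the 10361 kept genes with a transcript length. Above 1 were Tbx21, Runx3, Il12rb1 and Il12rb2, where all genes gave 49.3%, and below 1 were Stat4, Il18r1 and Il18rap, where all genes gave 17.4%. Against the median ratio of 1.09 in place of 1, the same 4 members lay above, beside 31.2% of all genes, and the same 3 below, beside 30.7%. At this depth an interval that leaves out 1 is the usual case and says little about a gene. The interval of Ifng included 1. The median change of the 8 kept members was 0.25, against 0.11 over all kept genes, and 5 of the 8 lay above that median. With no filter the median of all 10 members was 0.11, against 0.08 over all 13056 genes.

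**Figure D3:**
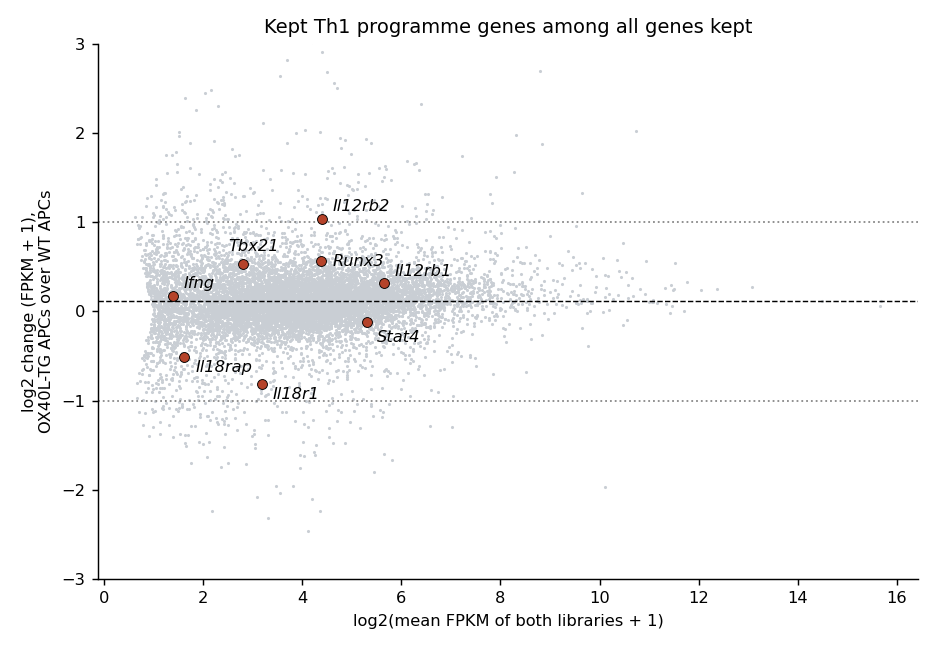
Log2 change (FPKM + 1), OX40L-TG APCs over WT APCs, against the log2 of the mean FPKM of both libraries plus 1, for 10645 genes (grey) and the 8 kept Th1 programme genes (red). The dashed line is the median of all genes, 0.11, the dotted lines mark 2-fold, and 15 genes changed by more than 3 on the log2 scale lie beyond the axis. Il12rb2 sits at the upper 2-fold line, and Il18r1 just inside the lower one at -0.82.

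Promoter windows from RefSeq (build GRCm38.p6, 250 bases before to 50 bases after a start site) were read for 9 of the 10 members. The windows of Il12rb2, Il18r1 and Il18rap are shown because the changes of these receptor genes lay farthest from the median of all genes (0.93, -0.93 and -0.63), and that of Ifng because IL-12 and IL-18 raise its expression. Where a gene has several start sites, the window is the nearest to the locus printed by the authors. Motifs were searched on both strands, and capitals mark matches to TTCNNNGAA (STAT), GGTGTGA (T-box), TGTGGT (RUNX) or TGANTCA (AP-1). No match overlapped another.
Ifng promoter, chr10:118440796-118441095, plus strand: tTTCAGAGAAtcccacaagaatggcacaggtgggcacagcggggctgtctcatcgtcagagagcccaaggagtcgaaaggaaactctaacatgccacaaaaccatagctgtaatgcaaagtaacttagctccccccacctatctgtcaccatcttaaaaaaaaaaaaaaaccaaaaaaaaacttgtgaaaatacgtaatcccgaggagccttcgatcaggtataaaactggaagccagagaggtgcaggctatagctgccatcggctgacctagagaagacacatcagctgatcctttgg
Il12rb2 promoter, chr6:67376139-67376438, minus strand: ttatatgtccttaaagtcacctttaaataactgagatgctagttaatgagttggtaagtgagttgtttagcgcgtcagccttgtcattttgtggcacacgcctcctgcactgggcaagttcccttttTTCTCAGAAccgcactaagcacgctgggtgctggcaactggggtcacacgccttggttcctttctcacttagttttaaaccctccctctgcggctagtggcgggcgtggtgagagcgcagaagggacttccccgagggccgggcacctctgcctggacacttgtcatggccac
Il18r1 promoter, chr1:40465302-40465601, plus strand: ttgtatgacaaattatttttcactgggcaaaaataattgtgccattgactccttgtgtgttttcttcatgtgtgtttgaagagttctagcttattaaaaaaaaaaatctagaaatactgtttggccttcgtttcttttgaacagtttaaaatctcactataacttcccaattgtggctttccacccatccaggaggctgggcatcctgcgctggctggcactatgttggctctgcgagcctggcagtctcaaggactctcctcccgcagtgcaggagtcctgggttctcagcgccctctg
Il18rap promoter, chr1:40515112-40515411, plus strand: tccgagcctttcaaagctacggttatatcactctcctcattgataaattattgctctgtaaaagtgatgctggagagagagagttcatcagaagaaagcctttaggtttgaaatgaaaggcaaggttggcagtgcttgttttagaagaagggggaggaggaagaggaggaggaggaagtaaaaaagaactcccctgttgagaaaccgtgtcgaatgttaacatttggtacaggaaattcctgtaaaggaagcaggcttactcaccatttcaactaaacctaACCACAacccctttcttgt

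The Il12rb2 window holds TTCTCAGAA, a STAT letter pattern that starts 123 bases before the start site. The Ifng window holds TTCAGAGAA, which starts 249 bases before it. Of 32851 RefSeq windows of this length, 8.30% hold such a pattern. The Il18rap window holds the RUNX letters on the opposite strand just after the start site, as 16.8% of all windows do, and so does the Runx3 window, where they occur at 2 places before it. The Il18r1 window printed here holds none of these patterns, while windows at its other start sites hold STAT and RUNX letters. T-box letters (3.98% of all windows) and AP-1 letters (7.81%) occur in none of the 13 windows of the 9 genes. These matches are letters in a window and not binding sites.

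The receptor relatives of these chains went both ways. Of 10 genes listed for chains that pair with or resemble the IL-12 and IL-18 receptors, 9 were kept, with a median change of -0.24. None reached 2-fold upwards, beside 2.26% of all kept genes, and 1 reached it downwards, beside 1.32%. With a pseudocount of 5 no gene of the list reached 2-fold. The count of lower genes was 2 with a pseudocount of 0.1, with the median ratio set to 0 or with equal totals. The lower gene in the main setting was Il23r, which encodes the chain that pairs with IL-12Rβ1 to bind IL-23. It stood at 14.9 FPKM (OX40L-TG APCs) against 31.4 FPKM (WT APCs), a ratio of 0.474 (0.439 to 0.512). Thus Il12rb2 and Il23r, the genes of the chains that share IL-12Rβ1 as their partner, differed in opposite directions. The highest change in the list was that of Il1r2, the gene of a decoy receptor for IL-1, at 20.9 against 14.1 FPKM (ratio 1.48, 1.31 to 1.69).

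Il18r1 and Il18rap lie side by side on chromosome 1 in a cluster of IL-1 receptor family genes, and the values along it differed from gene to gene. In the order of the chromosome, Il1r2 was followed by Il1r1, the gene of the signalling IL-1 receptor, at 24.1 FPKM (OX40L-TG APCs) against 48.5 FPKM (WT APCs), a ratio of 0.497 (0.477 to 0.518). The change of Il1r1, -0.98, lay just short of 2-fold on the log2(FPKM + 1) scale, so it was not counted as lower above. Next came Il1rl2, at 2.17 and 2.06 FPKM in the same order (ratio 1.05, 0.844 to 1.32). Il1rl1, which encodes the IL-33 receptor chain ST2 used by Th2 cells, stood at 0.664 and 0.327 FPKM and ended 136 bases before the printed start of Il18r1. Its ratio of 2.03 (1.23 to 3.64) rests on about 50 and 21 fragments, and the gene was under 1 FPKM in both libraries. These members of the cluster, other than Il1r2, were named after their values were seen. Il18r1, Il18rap and Il1r1 were thus lower in the OX40L-TG-APC library, whereas Il1r2 was higher.

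**Figure D4:**
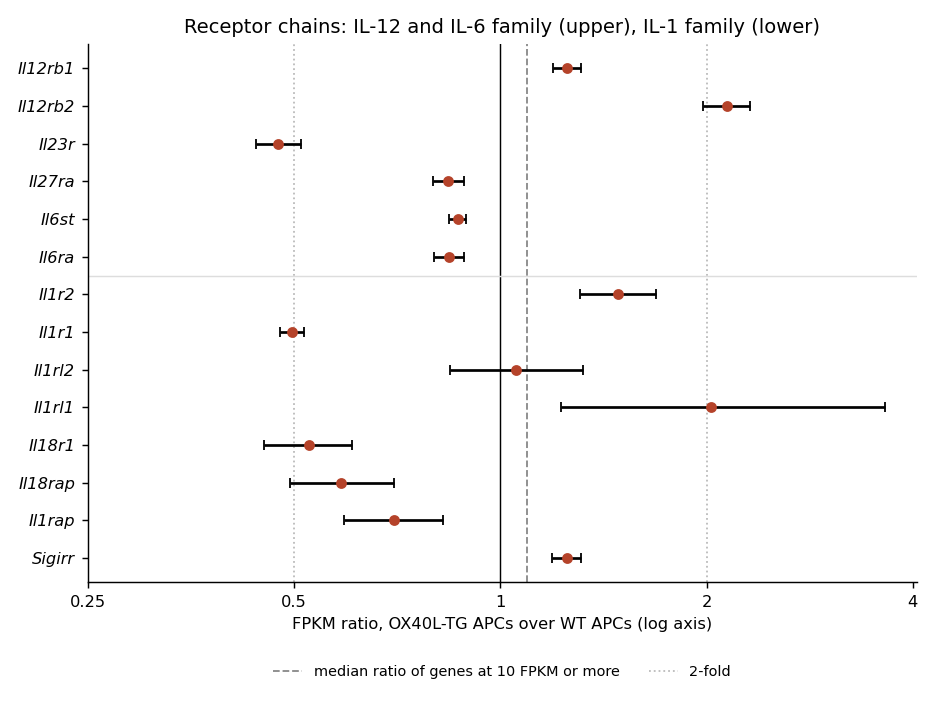
FPKM ratio, OX40L-TG APCs over WT APCs (log axis), with 95% counting intervals for receptor chains of the IL-12 and IL-6 family (upper) and of the IL-1 family (lower), where Il1r2 to Il18rap follow their order on chromosome 1. Il12rb2 (2.14) and Il23r (0.474) lie on opposite sides of 1, and Il1r1, Il18r1 and Il18rap lie together between 0.497 and 0.586.

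No kept gene of IL-12 and IL-18 signalling was at 2-fold on the log2(FPKM + 1) scale, a threshold that few of all kept genes passed. Of 20 listed ligands, kinases and adaptors 18 were in the table and 15 were kept, with a median of 0.22. None was at least 2-fold higher, beside 2.26% of all kept genes, and none lower, beside 1.32%. The highest was Ebi3, which encodes a subunit of IL-27 and IL-35, at 8.15 FPKM (OX40L-TG APCs) against 4.44 FPKM (WT APCs), at a printed locus of 2 protein-coding genes. The lowest was Myd88, the gene of the adaptor of the IL-18 receptor, at 46.9 against 65.6 FPKM. The kinase genes of the IL-12 receptor, named after their values were seen, stood at 92.9 against 75.6 FPKM (Jak2) and at 16.7 against 14.8 FPKM (Tyk2). Il18 and Il27 were listed at 0 in both libraries. Il12a, under 1 FPKM in both and so set aside, stood at 0.210 against 0.874 FPKM, a plain ratio of 0.240 (0.0893 to 0.582). These ligand genes were named after their values were seen.

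Interferon gamma receptor and signalling genes were expressed at levels far above Ifng itself. All 8 were kept. None was at least 2-fold higher or lower, beside 2.26% and 1.32% of all kept genes. The changes ran from -0.15 for Jak1, a receptor kinase gene at a locus of 2 protein-coding genes, to 0.36 for the feedback inhibitor gene Socs1 (97.1 against 75.2 FPKM). The median was 0.29. Both receptor chain genes, named after their values were seen, were present, with Ifngr1 at 66.2 against 52.6 FPKM and Ifngr2 at 31.6 against 30.7 FPKM.

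Of 13 genes that interferon gamma induces 12 were kept, with a median of 0.30. None was at least 2-fold higher and 1 was at least 2-fold lower, beside 2.26% and 1.32% of all kept genes. The lower gene was Ciita, the MHC class II transactivator, at 1.28 FPKM (OX40L-TG APCs) against 3.69 FPKM (WT APCs). The count of lower genes was 0 with a pseudocount of 5 or with genes kept at 5 FPKM or more. It was 2 with a pseudocount of 0.1 or with equal totals. The highest was Igtp, an interferon-inducible GTPase gene, at 93.8 against 46.9 FPKM, a change of 0.98 just short of 2-fold. The immunoproteasome genes Psmb8 (269.8 against 170.2 FPKM) and Psmb9 (137 against 76.4 FPKM) were also higher by less than 2-fold. Gbp2, an interferon-inducible guanylate binding protein gene, stood lower at 280.2 against 449 FPKM. Psmb8, Psmb9 and Gbp2 were named after their values were seen. The list thus held genes that differed in both directions.

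Among 19 listed Th1-associated effector genes 18 were in the table and 13 were kept, with a median of 0.17. At least 2-fold higher were Lta, which encodes lymphotoxin alpha, at 43.2 FPKM (OX40L-TG APCs) against 6.78 FPKM (WT APCs), and Il2 (19.4 against 4.48 FPKM). In the other direction 1 gene was at least 2-fold lower. Over all kept genes 2.26% were at least 2-fold higher and 1.32% at least 2-fold lower. The count of lower genes in the list was 2 with a pseudocount of 0.1, with the median ratio set to 0 or with equal totals. Chemokine receptor genes linked to Th1 cells, named after their values were seen, were Cxcr3, at 4.87 against 6.16 FPKM, and Cxcr6, at 3.68 against 8.37 FPKM and a printed locus of 2 protein-coding genes. The plain ratio of Cxcr6 was 0.440, and its change lay just short of the threshold on the log2(FPKM + 1) scale. Effector genes of Th1 cells thus did not share a direction.

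The factor genes that act with T-bet or RUNX3 were all kept, 10 in number, with a median of -0.14. None was at least 2-fold higher or lower on the log2(FPKM + 1) scale, beside 2.26% and 1.32% of all kept genes. With a pseudocount of 0.1, 2 were at least 2-fold lower, beside 2.36% of all kept genes in that setting. Runx2 stood at 0.961 against 2.08 FPKM, at a locus of 3 protein-coding genes, and Zeb2 at 0.455 against 1.08 FPKM. Their plain ratios were 0.463 (0.381 to 0.561) and 0.420 (0.309 to 0.575). Both were named after their values were seen. On the log2(FPKM + 1) scale the highest was Bhlhe40, at 408 against 213 FPKM and a printed locus of 2 protein-coding genes. The lowest on that scale was Id2, at 65.2 against 107 FPKM. Of 10 listed factors that oppose the Th1 programme 9 were in the table and kept, with a median of -0.48. Of these 1 was at least 2-fold lower and none higher, beside 1.32% and 2.26% of all kept genes. The lower gene was Maf (74.3 against 184 FPKM), a factor gene of Th17 and follicular helper cells, and 2 genes of the list were lower with a pseudocount of 0.1, with the median ratio set to 0 or with equal totals. The highest was Gfi1 (37.1 against 30.9 FPKM), a repressor gene.

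Beside these, the Th17 list of 14 genes had a median of -0.58. In it 1 member was at least 2-fold higher (Il22, 6.16 against 2.46 FPKM) and 5 were lower, beside 2.26% and 1.32% of all kept genes. The count of higher genes in the list was 0 with a pseudocount of 5, with the median ratio set to 0 and with equal totals. The lower genes were the cytokine genes Il17a (24.7 against 315 FPKM) and Il17f (450.3 against 1764 FPKM), the chemokine gene Ccl20 (2.30 against 15.5 FPKM, at a locus of 2 protein-coding genes), and Maf and Il23r with the values above. Of 9 Th2 genes 8 were in the table and 5 were kept, with a median of 0.42. At least 2-fold higher were Ccr4 (22.6 against 9.43 FPKM, at a locus of 2 protein-coding genes) and Ccr8 (30.9 against 12.4 FPKM), with none lower, and 1 gene was higher with a pseudocount of 5. No test of a difference between these lists and the Th1 programme genes was possible with 1 library per condition.

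**Figure D5:**
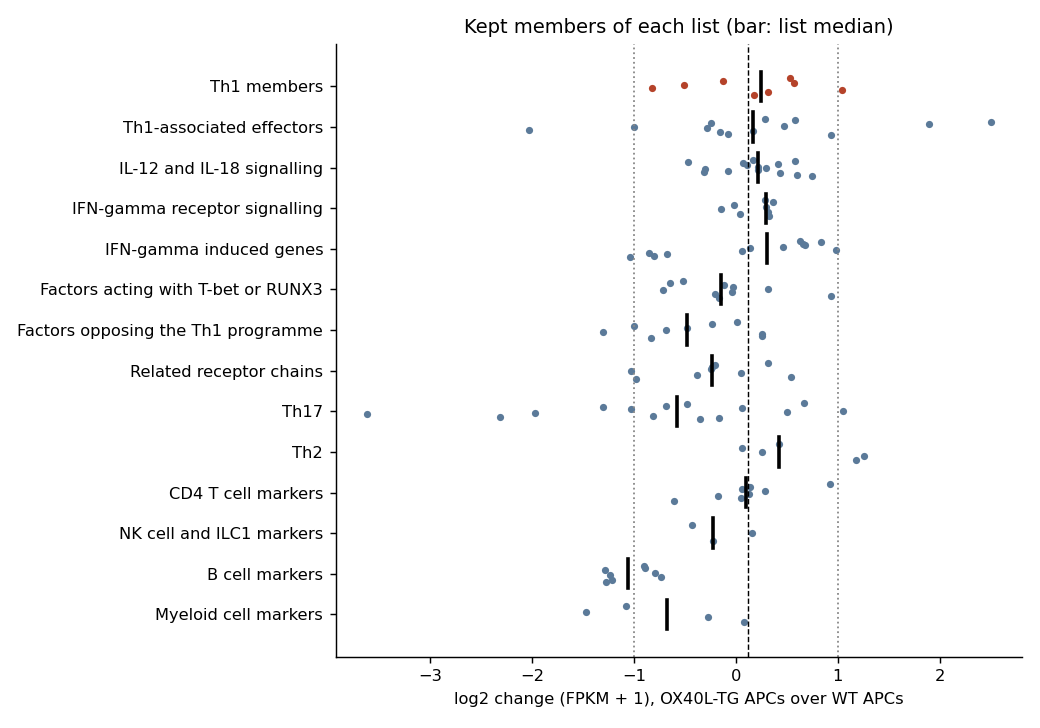
Log2 change (FPKM + 1), OX40L-TG APCs over WT APCs, of the kept members of each list shown, with the list median as a black bar. CD8 T cell, gamma delta T cell and dendritic cell markers are not shown. The dashed line is the median of all genes (0.11) and the dotted lines mark 2-fold. The Th1 programme genes (red) spread from -0.82 to 1.04 around a median of 0.25, and the B cell markers all lie between -1.29 and -0.74.

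Other cells that carry these genes or their relatives were looked for by marker genes. The T cell label held, with all 8 CD4 T cell markers kept and a summed level of 1699 FPKM (OX40L-TG APCs) against 1588 FPKM (WT APCs). Thy1 was highest, at a ratio of 1.90, and Cd28 lowest, at 0.653. Of 7 markers of NK cells and type 1 innate lymphoid cells, which use Ifng and the IL-18 receptor, 3 were kept, and the sum was 7.73 against 9.36 FPKM. Their changes ran from -0.43 for Prf1 to 0.16 for Klre1. Most of the sum came from Klrd1 (4.84 against 5.85 FPKM). The defining NK genes Ncr1 (0.0512 against 0.0880 FPKM) and Klrb1c (0.0405 against 0.155 FPKM) were near 0. Klrd1, Ncr1 and Klrb1c were named after their values were seen. The CD8 T cell genes Cd8a and Cd8b1 summed to 6.33 against 7.02 FPKM, with changes of -0.26 and -0.06. Of 4 gamma delta T cell markers 2 were in the table, with a sum of 2.02 against 5.38 FPKM that came mostly from Blk, which B cells share.

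B cell markers were lower with OX40L-TG APCs, and those of myeloid and dendritic cells were lower in sum. All 8 B cell markers had ratios between 0.252 and 0.540, and their sum was 22.5 FPKM (OX40L-TG APCs) against 54.6 FPKM (WT APCs). At least 2-fold lower were 4 of them, beside 1.32% of all kept genes, and among these were Cd79a, Fcrla and Blnk. Of 7 myeloid markers 4 were kept, and the sum was 6.02 against 12.5 FPKM, with Lyz2 (1.01 against 4.55 FPKM) and Tyrobp (0.827 against 2.87 FPKM, at a locus of 2 protein-coding genes) at least 2-fold lower and Cd68 at a ratio of 1.09. Of 6 dendritic cell markers 1 was kept, Flt3 (1.09 against 3.46 FPKM), and the sum was 2.15 against 4.79 FPKM. Most of the difference between these sums came from Flt3. The other dendritic cell markers were under 1 FPKM in both libraries, and of these Siglech and Clec9a were listed at 0 with OX40L-TG APCs. Cd68, Siglech and Clec9a were also named after their values were seen. In such mixed RNA, fewer cells of a type and less RNA per cell cannot be told apart. The sums of these markers differed in the same direction as Il18r1, Il18rap, Il23r and Ciita, and their part in those values was not tested.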

How the data were processed

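RNA-seq libraries of mouse CD4+ T cells, 1 with OX40L-TG APCs and 1 with WT APCs, were made from 1 µg of total RNA, per the labels' protocols. The authors deposited FPKM per gene, and the submitters' processing notes name TopHat2, Cuffdiff and the build mm9. Tool versions, the annotation used and strand handling are not given in the sources used here. Of the 24440 features 13056 carry Entrez identifiers, and 13027 were named from RefSeq. Of these, 99.7% of the printed loci overlapped the GRCm38 gene, so printed coordinates follow GRCm38. A second deposited table gives a log2 ratio and a p-value for 398 genes, per the file headers; its smallest absolute log2 ratio is 1.00 and its largest p-value 0.04985. For Il12rb2 its FPKM with WT APCs is 0.976 of the value in the full table. The same factor holds for every other gene of the lists used here that it contains.

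With 1 library per condition no test, SE or p-value was computed. Low FPKM values step in units of 1 fragment. Over 383 single-transcript genes below 0.3 FPKM, 62.4% of the ratios between libraries were whole-number ratios within 0.2% at a size ratio of 0.873, against 2.35% at a typical other ratio. Library sizes and a length correction of 190 bases were those at which low values came nearest to whole fragments. There 66.9% of 372 low values lay within 0.05 of a whole number of fragments. Lengths were medians of GENCODE M21 transcripts paired with RefSeq mRNAs. The procedure was checked on simulated fragments with known sizes, where the length correction was recovered less closely than the sizes. The simulation used the same length formula with 1 length per gene, so it cannot check values of genes with several transcripts. Intervals of genes with several transcripts are approximate. Python 3.11.15, pandas 2.3.3 and scipy 1.17.1 were used.

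Named genes were all members and, of every other list, those at 2-fold and otherwise those with the highest and lowest change; the highest is also given for lists with a call only downwards. Others are said to be named after their values were seen. Some genes of the lists that the rule names are not reported here by name, and the counts include them. Members and lists were chosen with earlier results of these data known. Lists held 154 genes, of which 147 were in the table, and the other 7 were not analysed here. Alternatives changed the pseudocount, scaling, filter, fold, library sizes and transcript length.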

Additional observations from a re-analysis of the deposited data

How the results depend on the processing

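No paired analysis was possible because each condition had 1 library, and for the same reason no replicate could be left out. The count of Th1 programme genes at least 2-fold higher was 0 instead of 1 with a pseudocount of 5, with the median ratio of well-expressed genes set to 0 and with equal totals. At a threshold of 1.5-fold, 1 member (Il18r1) was lower, instead of 0 at 2-fold. The median of 0.25 was 0.43 with genes kept at 5 FPKM or more, 0.14 with the median ratio set to 0, 0.11 with no filter and 0.10 with equal totals; over all genes it was 0.12, -0.00089, 0.08 and -0.05 in the same order. Over the pathway lists, 6 of 76 kept entries were at 2-fold, where a gene counts once in each list that holds it. This count became 12 with a pseudocount of 0.1, 10 with equal totals and 25 at 1.5-fold. Of the 10645 kept genes, 241 were higher and 141 lower (2.26% and 1.32%). These became 405 and 251 (3.8% and 2.36%) with a pseudocount of 0.1, and 101 and 39 (0.949% and 0.366%) with a pseudocount of 5. They were 767 and 360 (7.21% and 3.38%) at 1.5-fold. Equal totals gave 168 and 187 (1.58% and 1.76%). All 41 alternative values of single members kept their sign, but 12 of them moved in size and 29 did not. Among those that moved, Il18rap went from -0.51 to -0.22 with a pseudocount of 5, and Il12rb1 from 0.32 to 0.14 with equal totals. Of 189 alternative counts and medians of single lists, 38 moved and none changed sign. The number of intervals that left out 1 was 7 in each alternative, also against the median ratio, an alternative chosen after seeing the data.

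Counting intervals leave out the variation between cultures and animals. Fragment numbers of Il12rb2, Stat4, Il18r1 and Eomes, which have several transcripts, are rough. With 55 and 39 fragments, ratios for Ifng from 0.802 to 1.91 lie within counting error.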

Other observations

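Levels of opposed or paired genes were set against each other within each library, which leaves out the scaling between libraries. The pairs were chosen after the values were seen. Tbx21, the Th1 factor gene, to Gata3, the Th2 factor gene, stood at 1.75 with OX40L-TG APCs and 1.42 with WT APCs. Runx3 to Runx1 stood at 1.5 with OX40L-TG APCs and 0.912 with WT APCs. In the WT-APC library the levels of this pair were close, at 15.9 and 17.4 FPKM, and Runx1 has several transcripts. Il12rb2 to Il23r stood at 1.83 with OX40L-TG APCs and 0.405 with WT APCs. Stat4 to Stat3 stood at 0.144 and 0.252. Ifng remained far below the Th17 cytokine gene Il17f, at 0.00396 times its level with OX40L-TG APCs and 0.000830 times with WT APCs, a difference that comes mostly from Il17f (450.3 against 1764 FPKM).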
